A study of Mus musculus with 4 samples.

Results

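The genes followed here encode 10 subunits of the BAF (mammalian SWI/SNF) chromatin remodelling complex: 4 that are assembled in dividing neural progenitors (Actl6a, Phf10, Dpf2 and Ss18), 4 that take their place in neurons (Actl6b, Dpf1, Dpf3 and Ss18l1) and the ATPases Smarca4 and Smarca2. Members were the non-control probes of the scanner files whose gene name was one of the 10. That rule gave 16 probes for 9 genes, of 27661 genes and transcripts on the array, and no probe for Dpf1. A probe listed under the older symbol Neud4 carries the Dpf1 transcript (RefSeq NM_013874), and its values are given with the others and named as found by accession.

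Agilent 1-colour arrays were hybridised with Cy3-labelled cRNA from 0.25 µg of total RNA, 1 array for each of 4 mouse samples. Mixture was made from Swiss Webster mice by combining the same mass of RNA of day 11 embryo, lung, liver, spleen, thymus, kidney and heart, and the 3 other samples were neural progenitor cell (NPC) lines derived from embryonic stem (ES) cell lines. NPC replicate 1 was NS21 (129/Ola, from ES line 21), replicate 2 was NS195R (129/Sv, from ES line 195R) and replicate 3 was NSEB5-2C (129/Ola, from ES line EB5). For these lines no treatment, passage number or medium is given in the sources used here. Each line was hybridised once, so that strain, parent line and array cannot be told apart, and p-values measure only the spread between these 3 arrays. The question set by the study was which genes, transcription factors among them, were at least 1.5-fold above Mixture both in NSEB5-2C and in 1 of the lines NS195R and NS21.

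BAF complexes use the energy of ATP to move or eject nucleosomes, and several of their positions can be filled by alternative members of a gene family. When neural progenitors leave the cell cycle, the actin-related protein BAF53A (Actl6a) is exchanged for BAF53B (Actl6b), the PHD finger proteins BAF45A (Phf10) and BAF45D (Dpf2) for BAF45B (Dpf1) and BAF45C (Dpf3), and SS18 for CREST (Ss18l1). Either of the ATPases BRG1 (Smarca4) and BRM (Smarca2) can drive the complex, and BRG1 is the one known to be needed in neural progenitors.

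The label of Mixture is contradictory, since its source name is that of a doxycycline-treated NPC line. All 12 heart and striated muscle markers were well above background on that array and their summed scaled signal was 302400 there against 717.1 to 1735 in the NPC lines, and the array is called Mixture here. The NPC lines differed in neural progenitor markers. Fabp7 and Hes5 were well above background in NS195R and not in NS21 or NSEB5-2C, and Sox2 did not pass that limit in NS21. Other markers of the same list ran differently. Prom1 read 818 in NS21 and 77.8 in NS195R, and NS195R was the lowest line for Vim. Msi1 was nearly level, at 51.2 to 62.6 in the lines. Scaled signal here is the background-subtracted signal of a spot brought to a common percentile 75 on all arrays, in arbitrary units, and a probe's scaled signal is set only against the same probe on other arrays. Between 23983 and 26840 of 43379 non-control spots per array were well above background and 0 were saturated. Among the 18876 probes well above background on all 4 arrays, called measured below, the median log2 ratio of the lines to Mixture was 0.75, and ratios are also read against that shift.

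Of the 17 member probes, 15 were well above background on at least 1 array and were tested, and 13 were measured on all 4. The 2 that were not tested, both of Actl6b, were dim on every array, and the 2 tested but not measured throughout were of Smarca2. RefSeq sequences upstream of the start site (GRCm38.p6) were found for 9 of the 10 genes. For the actin-related pair, the PHD finger gene that differed most between lines and both ATPases, the 250 bases before the start are printed, 5′ to 3′ on the gene's strand, to show the control regions of the genes whose array values are contrasted below. Capitals mark matches, on either strand, to 8 motifs searched. GC boxes, bound by Sp and KLF factors, were searched as GGGCGG. The NF-Y box was searched as CCAAT, and the motif of ETS factors as CCGGAAG. The NRF1 motif is given by its name alone. E2F sites were searched as TTTNNCGC and the YY1 motif as AAGATGGCG. For the repressor REST the left part of its long site was searched, as TTCAGCACC. The TATA box was searched as TATAAA. No matches overlap in the printed windows.

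Actl6a: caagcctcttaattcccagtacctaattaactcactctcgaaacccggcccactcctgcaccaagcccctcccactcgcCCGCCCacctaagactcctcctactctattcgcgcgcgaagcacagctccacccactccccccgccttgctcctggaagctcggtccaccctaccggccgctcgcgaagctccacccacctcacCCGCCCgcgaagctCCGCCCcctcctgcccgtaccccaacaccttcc
Actl6b: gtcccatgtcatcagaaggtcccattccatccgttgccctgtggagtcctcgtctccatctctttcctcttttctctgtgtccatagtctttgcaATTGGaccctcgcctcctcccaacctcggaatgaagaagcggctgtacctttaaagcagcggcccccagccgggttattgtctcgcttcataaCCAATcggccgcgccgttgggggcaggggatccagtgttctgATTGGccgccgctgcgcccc
Dpf3: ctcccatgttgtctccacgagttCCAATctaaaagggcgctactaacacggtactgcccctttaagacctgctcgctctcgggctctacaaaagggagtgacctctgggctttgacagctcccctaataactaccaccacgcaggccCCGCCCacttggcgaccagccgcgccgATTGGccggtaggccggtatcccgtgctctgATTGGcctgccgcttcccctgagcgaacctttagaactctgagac
Smarca4: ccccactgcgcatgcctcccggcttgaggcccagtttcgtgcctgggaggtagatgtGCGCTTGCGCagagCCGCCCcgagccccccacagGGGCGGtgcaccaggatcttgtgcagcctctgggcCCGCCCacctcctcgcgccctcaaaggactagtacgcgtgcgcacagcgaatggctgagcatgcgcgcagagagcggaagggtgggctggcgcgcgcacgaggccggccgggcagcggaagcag
Smarca2: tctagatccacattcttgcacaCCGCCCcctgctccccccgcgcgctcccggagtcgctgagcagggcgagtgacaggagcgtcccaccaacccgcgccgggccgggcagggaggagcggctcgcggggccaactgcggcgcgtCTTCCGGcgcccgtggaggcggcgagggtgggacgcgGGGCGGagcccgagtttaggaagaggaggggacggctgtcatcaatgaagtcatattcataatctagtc

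These windows are chr3:32708296-32708545 (+) for Actl6a, chr5:137553296-137553545 (+) for Actl6b, chr12:83487737-83487986 (-) for Dpf3, chr9:21615919-21616168 (+) for Smarca4 and chr19:26604910-26605159 (+) for Smarca2. The Actl6a window has 3 GC boxes, first bases at -171, -47 and -33 from the start, and no CCAAT box. The Actl6b window has 3 CCAAT boxes, at -155, -62 and -20, and no GC box. The Dpf3 window has 1 GC box at -103 and 3 CCAAT boxes at -227, -76 and -45. Smarca4 has 3 GC boxes and an NRF1 match at -193, and Smarca2 has GC boxes at -228 and -69 and an ETS match at -106. Of the windows not printed, those of Phf10 and Ss18l1 matched the GC box and not CCAAT. That of Dpf2 matched CCAAT and not the GC box, and that of Dpf1 matched both. Neither box thus kept to the progenitor form or to the neuron form. None of the 9 windows held the REST letters, which 0.301% of 32851 mouse promoter windows of this length hold, nor the TATA, E2F or YY1 letters, held by 12.4%, 4.28% and 0.606%. GC boxes are present in 32.7% of all windows, CCAAT in 33.8%, the ETS letters in 6.91% and the NRF1 letters in 3.74%. All 9 windows were richer in CpG than the median window, with observed over expected ratios from 0.735 (Actl6b) to 1.1 (Phf10) against a median of 0.373. These matches describe letters in the windows and no binding was measured.

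All 5 probes of the progenitor form were above Mixture in every line, as were 59.6% of all measured probes. The 5 probes lay 1.56-fold to 7.45-fold above it, and none passed the test for a difference at the main setting. Actl6a, the actin-related subunit that BAF shares with the INO80 and TIP60 complexes, had scaled signals of 515 in Mixture and 2251, 1911 and 3841 in NS21, NS195R and NSEB5-2C at its brighter probe (A_52_P231737). The lines lay 3.71-fold to 7.45-fold above Mixture, with NSEB5-2C highest, and the mean log2 ratio was 2.30 (SE 0.58, n = 3 lines against 1), at percentile 95.01 of measured probes. Its second probe (A_52_P220069), listed for the cDNA AK013221, read 52.2, 209, 167 and 144 in the same order, with a mean log2 ratio of 1.71 (SE 0.42). The probes differ in the order of the lines, since NSEB5-2C was highest at the first and lowest of the lines at the second. In RNA from a whole culture or from pooled tissue, fewer cells that express a gene and less of its RNA per cell cannot be told apart.

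Ss18, which encodes the subunit that CREST replaces in neurons, had scaled signals of 1849 in Mixture and 6502, 5216 and 7076 in NS21, NS195R and NSEB5-2C. Its mean log2 ratio was 1.75 (SE 0.40), with the lines 2.82-fold to 3.83-fold above Mixture and within 1.36-fold of each other. Phf10, the PHD finger subunit of the progenitor form and of PBAF, read 2936 in Mixture and 7965, 6658 and 8603 in NS21, NS195R and NSEB5-2C, a mean log2 ratio of 1.39 (SE 0.38). Dpf2, the most widely expressed of the DPF genes, read 1197 in Mixture and 2022, 1863 and 2103 in the lines. The Dpf2 mean log2 ratio of 0.74 (SE 0.35) lay 0.02 below the shift of all measured probes, so that Dpf2 stood 1.66-fold above Mixture and no higher than the typical probe. For these 3 genes NS195R was the lowest line and NSEB5-2C the highest.

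**Figure D1:**
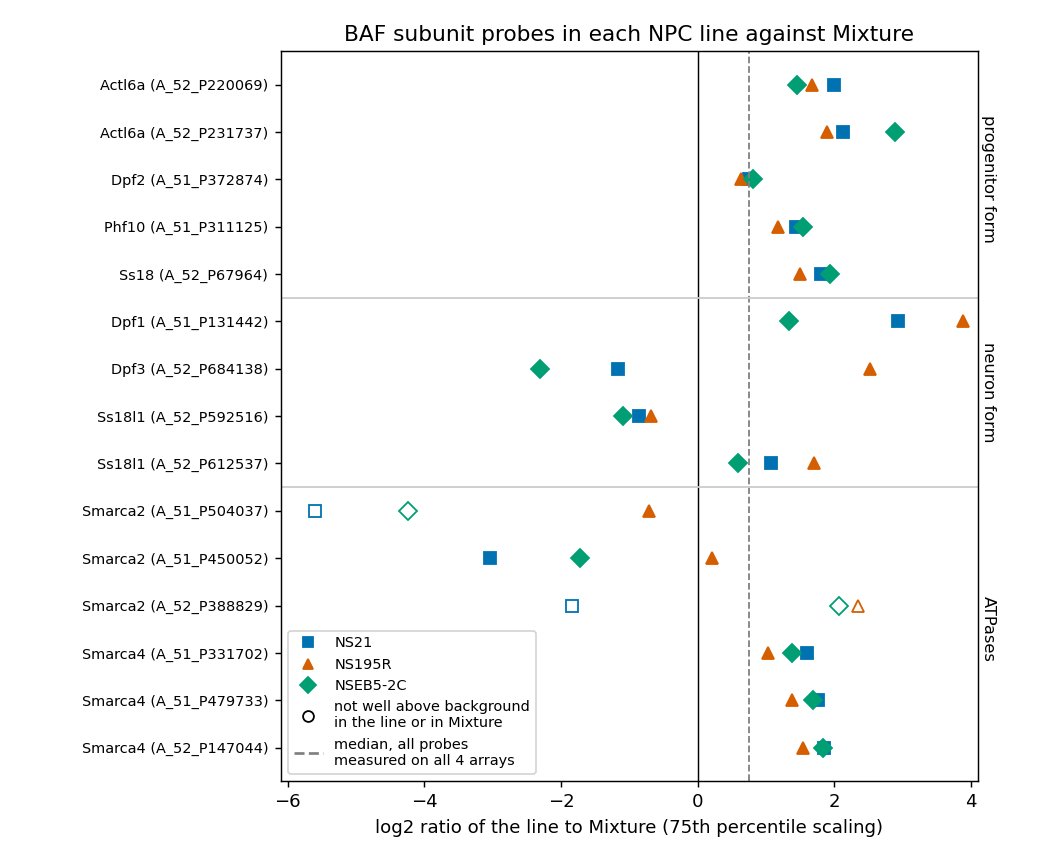
Log2 ratio of each NPC line to Mixture (horizontal axis, log2 units, 75th percentile scaling) for the 15 tested member probes, grouped by subunit form; 1 symbol per line, open where the probe was not well above background in the line or in Mixture, and a dashed line at the median of all measured probes (0.75). The progenitor-form and Smarca4 symbols lie close together right of 0, while those of Dpf3, Dpf1 and Smarca2 spread over several log2 units.

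In limma's test of the lines against Mixture (two-sided, Benjamini-Hochberg over 29700 probes), 0 of the 14 tested probes found by gene name passed an adjusted p of 0.05 as higher, where 0.943% of all tested probes did, and 0 passed as lower, where 7.88% did. Over all probes that was 280 higher and 2340 lower, against 932 and 2210 with quantile scaling and 0 of either when any 1 line was left out. The adjusted p was 0.110 and 0.113 for the Actl6a probes, 0.100 for Ss18, 0.127 for Phf10 and 0.263 for Dpf2. With normexp background correction the adjusted p was 0.0373 for Ss18, 0.0455 for Phf10 and 0.0361 for Smarca4 at A_51_P479733, and these 3 probes passed. At an unadjusted p under 0.05, 7 of 14 were higher (both Actl6a probes, Phf10, Ss18 and all 3 of Smarca4) against 16.9% of all probes, and 0 were lower against 13.8%. Every line was above Mixture at 9 of 12 measured probes, where 59.6% of all were, and below it at 1 of 12, where 15.3% were. Every line exceeded Mixture by more than the median shift at 7 of 12 probes (33.4% of all), those of Actl6a, Phf10, Ss18 and Smarca4, and every line lay under that shift at 2 of 12 (32.8% of all), the brighter Ss18l1 probe and A_51_P450052 of Smarca2. The study's 1.5-fold rule was met by 10 of 14 tested probes, of 7 genes, against 38.2% of all tested probes. Smarca2 met it at A_52_P388829 alone, where Mixture was not well above background, and Ss18l1 at its dimmer probe alone. Dpf3 was the tested gene found by name that did not meet it, and Dpf1, found by accession, met it.

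**Figure D2:**
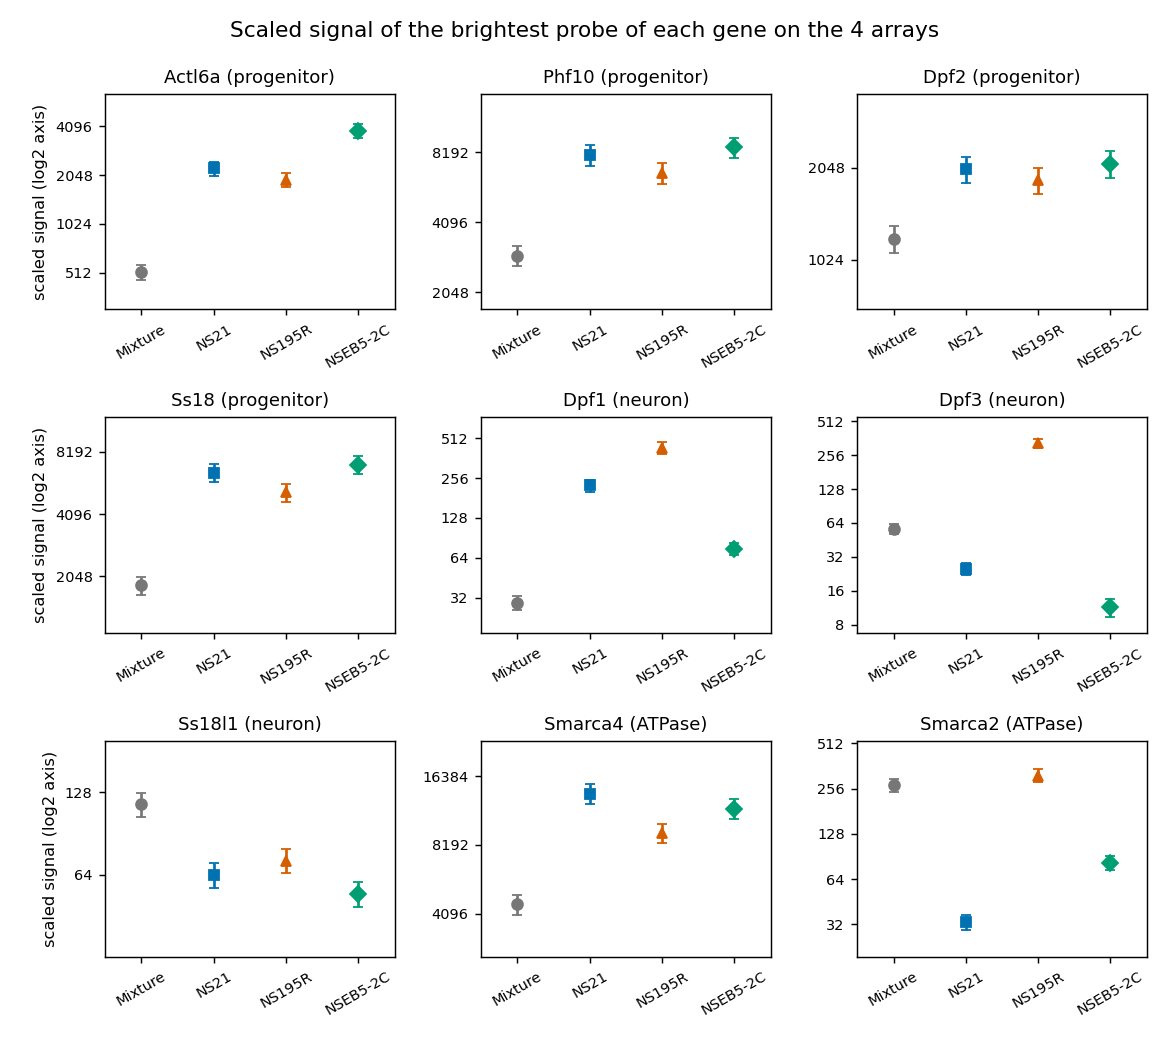
Scaled signal (arbitrary units, log2 axis, a separate range per panel) of the brightest probe of 9 member genes on the 4 arrays; points are single arrays and bars are the scanner software's error of the spot. For Actl6a, Phf10, Dpf2, Ss18 and Smarca4 all lines lie above Mixture, whereas for Dpf3 and Smarca2 NS195R stands above NS21 and NSEB5-2C.

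The neuron-form genes had no common direction. Actl6b, the neuron-specific actin-related subunit, passed the background limit on none of the 4 arrays, with scaled signals of 1.44 to 2.33 at A_51_P347054, and of 6.72 in Mixture and 1.58 to 1.66 in the lines at A_52_P184395. No fold or test is given for it, and a dim spot on these probes sets no level for the gene.

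Dpf3, a PHD finger subunit of the neuronal complex that is also expressed in heart and skeletal muscle, read 56.7 in Mixture and 25.2, 325 and 11.5 in NS21, NS195R and NSEB5-2C. NS195R was 5.74-fold above Mixture, whereas Mixture was 2.25-fold above NS21 and 4.93-fold above NSEB5-2C. The scanner error of the NSEB5-2C spot was 1.93 on an unscaled signal of 10.9, and that of the NS21 spot was 3.0 on 24.6. The lines spanned 28.3-fold. Their mean log2 ratio of -0.32 (SE 2.25, adjusted p = 0.936) describes none of them, and it became 0.11 without NS21, 0.68 without NSEB5-2C and -1.73 without NS195R.

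Dpf1, the other PHD finger subunit of the neuronal form, was above Mixture in every line at the probe found by accession. It read 29.3 in Mixture and 225, 433 and 74.5 in NS21, NS195R and NSEB5-2C. The lines lay 7.68-fold, 14.8-fold and 2.54-fold above Mixture and spanned 5.81-fold among themselves. The mean log2 ratio of 2.72 (SE 1.19, adjusted p = 0.230) was at percentile 97.99 of measured probes, and it did not pass the test. With normexp the ratio was 1.67, below that of Actl6a at its brighter probe (2.18).

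Ss18l1, the CREST subunit that neurons use for activity-dependent gene expression, had probes of opposite direction. The brighter probe (A_52_P592516) read 116 in Mixture and 64.1, 72.2 and 54.7 in NS21, NS195R and NSEB5-2C, so that Mixture was 1.61-fold to 2.12-fold above the lines and no line reached it. The dimmer probe (A_52_P612537) read 22.0 in Mixture and 46.5, 72.03 and 33.3 in the lines, 1.51-fold to 3.27-fold above it. Both probes are listed for transcript NM_178750, the mean log2 ratios were -0.87 (SE 0.39, adjusted p = 0.236) and 1.13 (SE 0.60, adjusted p = 0.299), and the direction of this gene was not settled by the array.

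Taking the brightest probe of each gene, the median log2 ratio of the 4 progenitor-form genes was 1.63, 1.34 and 1.74 for NS21, NS195R and NSEB5-2C, and 1.57 over the lines. The median of the 2 measured neuron-form genes found by name was -1.01, 0.92 and -1.69 in the same lines. Over the lines it was -0.60, but -1.35 without NS195R, -0.39 without NS21, -0.05 without NSEB5-2C, -0.10 with normexp, -0.21 with quantile scaling, 0.16 under scaling to the median, -0.09 with the mean of a gene's probes and 0.41 with the dimmer Ss18l1 probe. With Dpf1 added it was -0.32, and 0.21, 0.20 and 0.44 with normexp, quantile and median scaling. By gene name the progenitor-form median stood above the neuron-form one in every line, but in NS195R the order turned with quantile scaling (1.10 against 1.15), with the dimmer Ss18l1 probe (both neuron-form ratios, 2.52 and 1.71, above 1.34) and with Dpf1 added (2.52). No test was made of either median, and the second rests on 2 or 3 genes.

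The RNA of partner genes was compared by the difference of their log2 ratios to Mixture, in which the scaling by a percentile cancels. No protein or complex was measured, so the exchange of subunits itself was not followed. Mixture is a pool of embryo and organs and no sample of neurons. For Ss18 and Ss18l1 the difference came to 2.67, 2.18 and 3.02 for NS21, NS195R and NSEB5-2C (mean 2.62 ± 0.42, SD, n = 3). At the brighter Ss18l1 probe, Ss18 signal was thus 6.16-fold higher relative to Ss18l1 signal than in Mixture. With the dimmer probe the mean was 0.62, and in NS195R Ss18l1 then had the larger ratio (1.71 against 1.50 for Ss18). For Dpf2 and Dpf3 it was 1.92, -1.88 and 3.11 (mean 1.05 ± 2.61), so that NS195R ran against the other lines. The mean was 2.52 without NS195R, 0.62 without NS21, 0.02 without NSEB5-2C, 0.46 with normexp and 0.16 with quantile scaling. For Phf10 and Dpf1 it was -1.50, -2.70 and 0.20 (mean -1.33 ± 1.46), with the neuronal partner higher in relative terms in NS21 and NS195R; it was -0.65 without NS195R, -2.10 without NSEB5-2C and -0.34 with normexp. With quantile scaling it was -2.23, and NSEB5-2C turned to -0.88. The pairing among the PHD finger genes was a choice. Set against Dpf2 instead, Dpf1 had the larger ratio in NSEB5-2C too (1.35 against 0.81). Phf10 against Dpf3 kept the signs of Dpf2 against Dpf3 in each line. No such value exists for Actl6a and Actl6b, whose neuronal partner was not measured. With 3 arrays against 1 the smallest exact p is 0.25, and no test of these differences was made.

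**Figure D3:**
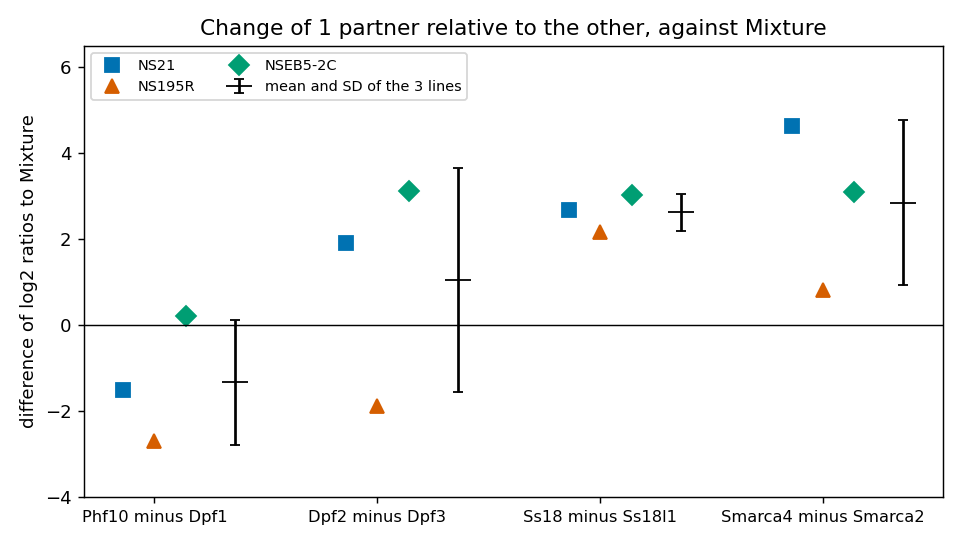
Difference between the log2 ratios to Mixture of the first and the second partner (vertical axis, log2 units) for 4 pairs; symbols are the 3 NPC lines and the bar is their mean and SD. Values above 0 mean that the first partner was higher relative to the second than in Mixture: Ss18 and Ss18l1 (at its brighter probe) and the ATPase pair (Smarca2 at A_51_P450052) lie above 0 in all 3 lines, and the PHD finger pairs lie on both sides.

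Smarca4, which encodes the ATPase BRG1, was above Mixture in every line at all 3 probes, as were 59.6% of all measured probes. At its brightest probe (A_51_P331702) it read 4514 in Mixture and 13718, 9233 and 11782 in NS21, NS195R and NSEB5-2C, a mean log2 ratio of 1.34 (SE 0.43, adjusted p = 0.153). A_51_P479733 read 2035, 6945, 5302 and 6552 in that order, a mean of 1.61 (SE 0.39, adjusted p = 0.108). The dimmest of the 3, A_52_P147044, read 57.2, 207, 167 and 205, a mean of 1.75 (SE 0.38, adjusted p = 0.0939). NS21 was the highest and NS195R the lowest line at each of them, with spans of 1.24-fold to 1.49-fold.

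Smarca2, which encodes the ATPase BRM, differed by line at each of its 3 probes. At A_51_P450052 (transcript NM_026003) it read 271 in Mixture and 33.0, 313 and 82.4 in NS21, NS195R and NSEB5-2C. Mixture was 8.19-fold above NS21 and 3.28-fold above NSEB5-2C, and NS195R was 1.16-fold above Mixture; the mean log2 ratio was -1.51 (SE 1.48, adjusted p = 0.545), and -0.75 without NS21 or -2.37 without NS195R.

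At A_51_P504037 (NM_011416) Smarca2 read 79.0 in Mixture and 48.2 in NS195R and did not pass the background limit in NS21 or NSEB5-2C. A bound set the bright array against the lowest signal called well above background on the dim array, or the dim spot itself where that was higher. By it, Mixture was at least 10.7-fold above NS21 and at least 11.8-fold above NSEB5-2C, and NS195R at least 6.53-fold and at least 7.18-fold above them. At A_52_P388829, listed for the same transcript, the readings were 28.7 in NS195R and 23.5 in NSEB5-2C, while Mixture and NS21 were not well above background. There NS195R was at least 3.73-fold and NSEB5-2C at least 3.07-fold above Mixture. NS195R was the highest line at all 3 Smarca2 probes, whereas Mixture was above NS21 and NSEB5-2C at the first and second and below NSEB5-2C at the last.

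The ATPase pair gave a difference of log2 ratios, Smarca4 minus Smarca2, of 4.64, 0.82 and 3.1 for NS21, NS195R and NSEB5-2C (mean 2.85 ± 1.92, SD, n = 3), with Smarca2 at A_51_P450052. At that probe Smarca4 was higher relative to Smarca2 than in Mixture in each line, 7.23-fold on average, and least so in NS195R. At A_52_P388829 the order turned in NS195R, where Smarca2 was at least 3.73-fold above Mixture against 2.05-fold for Smarca4 at its brightest probe. In NSEB5-2C it was at least 3.07-fold against 2.61-fold at the same Smarca4 probe. The other Smarca4 probes stood 3.22-fold and 3.59-fold above Mixture in NSEB5-2C, and the bound shows no turn against them. The direction of this pair thus depends on the Smarca2 probe and, in NSEB5-2C, also on the Smarca4 probe. The mean was 1.96 without NS21 and 3.87 without NS195R.

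The members were of unequal spread between the lines. The SD of log2 signal between the 3 lines was 0.089 for Dpf2, lower than at all but 4.01% of measured probes, and 0.190 for Phf10, 0.227 for Ss18 and 0.177 to 0.288 for Smarca4. Actl6a had 0.271 and 0.527 at its 2 probes, the second at percentile 59.8, and neuron-form Ss18l1 had 0.201 and 0.558, at percentiles 17.7 and 62.8. The SD was 1.28 for Dpf1, 1.63 for Smarca2 and 2.52 for Dpf3, which lie at percentiles 89.6, 93.7 and 98.2, against a median of 0.432 over all measured probes. The highest line was at least 2-fold above the lowest at 4 of 12 measured probes found by name (1 each of Actl6a, Dpf3, Smarca2 and Ss18l1), where 40.4% of all measured probes were. That share is near the background of all probes.

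**Figure D4:**
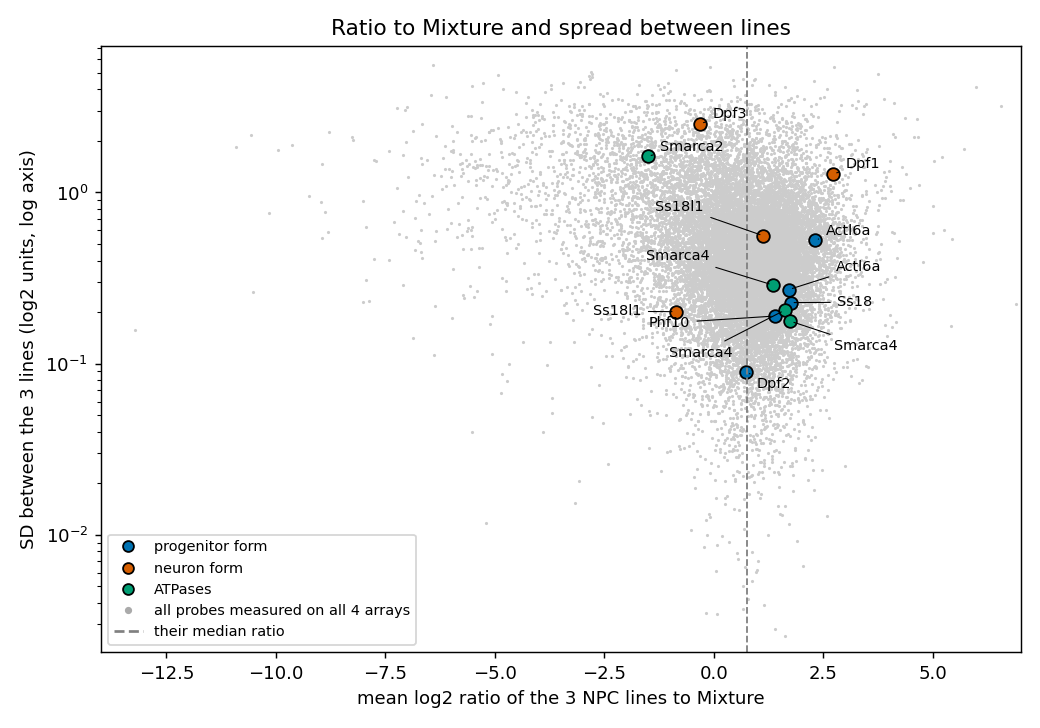
Mean log2 ratio of the 3 NPC lines to Mixture (horizontal axis) against the SD between the lines (vertical axis, log2 units on a log axis) for the 18876 probes measured on all 4 arrays (grey) and the 13 member probes (coloured by form, with a thin line to a name where needed). The progenitor-form and Smarca4 probes lie right of 0, all but 1 Actl6a probe (0.527) under the median spread of 0.432, and Dpf1, Dpf3 and Smarca2 lie higher, at 1.28 to 2.52.

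Taking the lines 1 by 1, NS195R was at least 2-fold above both other lines at 3 of 14 member probes found by name, of Dpf3 and Smarca2, where 12.8% of the 26846 probes tested between lines were. NS21 was at least 2-fold below both others at the 3 Smarca2 probes (6.13% of all), of which A_51_P504037 was dim in both NS21 and NSEB5-2C and A_52_P388829 in NS21. NS21 was at least 2-fold above both others at 0 member probes (8.22% of all), as was NSEB5-2C (6.92%), and NS195R was at least 2-fold below both at 0 (7.64%). NSEB5-2C was at least 2-fold below both others at the Dpf3 probe (9.9% of all) and at the Dpf1 probe found by accession. In limma's test of 1 line against the other 2, with 1 residual degree of freedom between lines before the prior, 0 member probes and 0 of all probes passed for any line. At an unadjusted p under 0.05 the counts were 2824 of all probes (10.5%) for NS195R, among them Dpf3 and A_51_P504037 of Smarca2, 1346 (5.01%) for NS21, among them A_52_P388829 of Smarca2, and 1485 (5.53%) for NSEB5-2C with 0 members. Dpf3 was 4.25 log2 units higher in NS195R than in the mean of the other lines (adjusted p = 0.308), and Smarca2 at A_51_P450052 was 2.58 higher (adjusted p = 0.541).

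Markers of neurons were also unequal between the lines. Of 16 neuron markers, 15, 12 and 10 were well above background in NS195R, NS21 and NSEB5-2C, with summed scaled signals of 9683, 7058 and 6513, of which Map2 gave 2177, 81.8 and 56.8. Dcx, a microtubule protein of migrating neurons, read 117 in NS195R. Rbfox3, which encodes the mature neuron marker NeuN, read 40.5 there. Neither passed the background limit in the other lines, but Mixture read 101.7 and 40.8 for them. All 16 neuron markers passed that limit in Mixture. Other markers ran differently: Tubb3 was 546.9 in NS21 and 59.9 in NS195R. Stmn2 read 340.3 in NS21 and did not pass the limit in NS195R. Of 12 neural progenitor markers, 12, 8 and 10 passed the background limit in NS195R, NS21 and NSEB5-2C, with summed scaled signals of 75670, 34110 and 35000, of which Fabp7 gave 35850, 4.41 and 4.37. Astrocyte markers had summed scaled signals of 13050, 2107 and 2194 in NS195R, NS21 and NSEB5-2C and 10260 in Mixture, with Gfap dim on all 4 arrays. Aldoc, S100b and Glul gave most of the NS195R sum (4468, 4277 and 2865). In Mixture, a pool of embryo and organs, Aldh1l1 and Glul gave most of the sum (5234 and 4031). Gja1 ran the other way, at 193.3 in NS195R against 604.5 in NS21 and 620.7 in NSEB5-2C. The part of these cell types in the Dpf3, Dpf1 and Smarca2 values was not tested.

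Markers of dividing cells were also above Mixture. All 10 were so in every line, as were 59.6% of all measured probes. Their median log2 ratio was 1.93, or 1.18 above the shift of all measured probes. Summed scaled signals were 10430 in Mixture and 21920, 32360 and 40330 in NS21, NS195R and NSEB5-2C. The sum was thus lowest of the lines in NS21 and highest in NSEB5-2C. Phf10, Dpf2 and Ss18 were lowest in NS195R and highest in NSEB5-2C. For Actl6a, NSEB5-2C was the highest line at the brighter probe and the lowest at the other. The part of dividing cells in the Actl6a, Phf10 and Ss18 values was not tested. Of 10 pluripotent cell markers, 7, 4 and 5 passed the background limit in NS21, NS195R and NSEB5-2C. Pou5f1 (88.9) and Lin28a (522.6) passed that limit in NS21 alone, and Nanog on no array.

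Genes whose pattern over the 4 arrays lay closest to a member with a 2-fold span were named by the Euclidean distance between log2 values centred per probe. For Actl6a these were Yrdc (0.0425), Iws1 (0.0604) and Nop16 (0.062). For Dpf3 they were Tnik (0.181), Sarm1 (0.361) and Atp1b2 (0.368), and for Dpf1 Zfp811 (0.279), Rpgr (0.336) and Map4k4 (0.338). For Smarca2 they were Itpr2 (0.169), Entpd1 (0.173) and Ncoa1 (0.248). With 4 arrays such nearness is a description only.

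The remaining subunits of BAF and PBAF were taken from a list of 21 genes, of which 18 were tested and 17 measured. In limma's test 0 passed in either direction. The 1.5-fold rule was met by 9 of 18, against 38.2% of all tested probes, and at an unadjusted p under 0.05 there were 4 higher (16.9% of all) and 2 lower (13.8% of all). Their median log2 ratio of 0.78 lay 0.03 above that of all measured probes. Smarce1 (BAF57) had a ratio of 2.14 (SE 0.55, adjusted p = 0.116), and Smarcc1 (BAF155), a core subunit abundant in stem and progenitor cells, had 2.00 (SE 0.43, adjusted p = 0.0920). Smarcc1 read 1772 in Mixture and 7977, 5644 and 7948 in NS21, NS195R and NSEB5-2C. Bcl11b, a zinc finger subunit that is abundant in thymus, had the ratio of largest size, -4.60 (SE 1.29, adjusted p = 0.129), with 2266 in Mixture and 30.9, 135 and 194.6 in the lines.

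**Figure D5:**
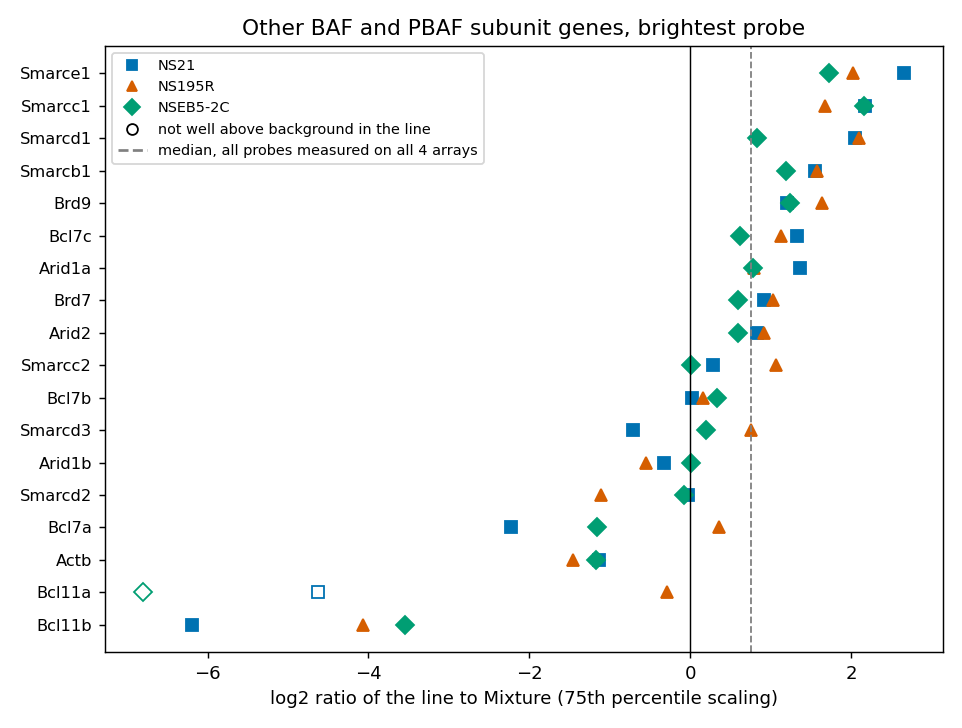
Log2 ratio of each NPC line to Mixture (horizontal axis) at the brightest probe of 18 other BAF and PBAF subunit genes, ordered by mean ratio; 1 symbol per line, open where not well above background in the line. Smarce1, Smarcc1, Smarcd1, Smarcb1, Brd9 and Arid1a lie to the right of the dashed median of all measured probes in all 3 lines. Bcl11b lies furthest left among the measured genes.

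Lists of related genes were read in the same way, against the 59.6% of all measured probes with every line above Mixture and their median ratio of 0.75. All 12 INO80 and TIP60 subunit genes, complexes that also hold Actl6a, were above Mixture in every line, with 0 called, a median ratio of 0.996, and Ruvbl2 (2.44), Ruvbl1 (1.85) and Ep400 (1.18) as the largest. Of 13 genes for ISWI, CHD and other remodelling ATPases, 12 were measured and 8 of these were above Mixture in every line, with a median ratio of 1.22 and Hells (2.76), Atrx (1.90) and Chd6 (1.64) as the largest. The Atrx ratio rests on a low reading of 16.8 in Mixture. Of 13 genes for the repressor REST, which silences neuronal genes outside neurons, cofactors and regulators listed with it, 11 were above Mixture in every line and 0 were called, with a median ratio of 0.89. Hdac2 (2.84, adjusted p = 0.0615), Rcor2 (2.72, adjusted p = 0.0890) and Ptbp2 (2.22, adjusted p = 0.0553), a splicing regulator and no REST cofactor, had the largest ratios there. The Hdac2 ratio rests on a low reading of 13.9 in Mixture, against 85.9 to 132.8 in the lines. Rest itself read 473.3 in Mixture and 1128, 565.6 and 835.9 in NS21, NS195R and NSEB5-2C, so that NS195R was the lowest line.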

How the data were processed

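Each spot's intensity was background-subtracted by Agilent's Feature Extraction (version 9.5.3.1, per the file headers), which also wrote an error for the signal and quality flags. The deposited table of intensity values equalled these processed signals at all 45018 features and had 0 columns of other samples. No genome build for probe positions is given in the sources used here. The 4 arrays shared 1 slide and 1 scan.

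From the log2 of each non-control spot's processed signal, percentile 75 of its array was subtracted. Flagged spots (68 to 121 per array) were left out and the 10 copies of 245 repeated probes were averaged. The SD between copies had a median of 0.073 to 0.117 log2 units per array, which with the number of arrays limits the precision. Symbols were taken from the RefSeq table of GRCm38.p6 by accession for 22944 probes, by symbol for 6664 and by synonym for 3108, and 8458 kept the name in the files. Promoter windows are RefSeq sequences of the same build.

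The lines were compared with Mixture, and each line with the other 2, with limma 3.58.1 (lmFit and eBayes, R 4.3.3) on every probe well above background on at least 1 array of the comparison. Against Mixture, 2 residual degrees of freedom were available, to which limma's prior contributed 1.41. Mixture, a lone array, was taken to vary as the lines do. The scripts were tested on simulated data. The members and lists were chosen with earlier results of these data known. The rule for names took every member probe, list genes called by limma, up to 3 genes per list with the largest absolute ratio among those measured, and up to 3 genes nearest in pattern to each member with a 2-fold span. Marker genes, Tubb3, Rest and the genes named in the subunit plot's caption were named after their values were seen. Alternatives covered background correction, scaling, the filter on dim probes, the variance prior, the probe per gene, the members' naming and leaving out each line.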

Additional observations from a re-analysis of the deposited data

Results flagged for a closer look

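Dpf1 had no probe by gene name, so that its values stand outside the main rule. The probe listed as Neud4, matched by its RefSeq accession, gave a mean log2 ratio of the NPC lines to Mixture of 2.72, with every line above Mixture.

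Dpf3 lay above Mixture in NS195R and below it in NSEB5-2C, and the log2 difference between these lines was 4.82. With 1 array per line that difference was not tested. It rests on 1 probe, and no group had the 4 samples that a check for single outlying arrays needs.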

How the results depend on the processing

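Among the main results, 100 values under alternative settings stayed within the limits set for them and 9 moved. For medians and partner differences the limit was the SD between lines, so a turn of sign within it counted as unmoved. The neuron-form median was so counted at 0.16 and 0.41 against -0.60, and the Dpf2 and Dpf3 difference at 0.02 against 1.05. Counts between lines could not move, since 0 of all probes were called at every setting. The 100 values are thus no measure of stability. Among single probes 163 kept their direction and call, 4 were newly called and 5 turned in sign. The count of members higher in the lines rose from 0 to 3 with normexp background correction (Phf10 1.33, adjusted p = 0.0455; Ss18 1.68, adjusted p = 0.0373; Smarca4 at A_51_P479733 1.57, adjusted p = 0.0361), where 1324 of all probes were called higher against 280, and to 1 with an intensity trend in limma (Ss18, adjusted p = 0.0498), where 597 were. The count lower went from 0 to 1 without a filter on dim probes, through an Actl6b probe that was dim on every array (adjusted p = 0.0298). The median shift of all measured probes was 0.51 with normexp, 0.80 with quantile and 1.51 with median scaling, and the progenitor-form median was 1.20 with quantile and 2.32 with median scaling. The Ss18 and Ss18l1 difference was 2.10 with normexp, 2.01 with quantile scaling, 1.62 with the mean of a gene's probes and 0.62 with the dimmer Ss18l1 probe, a setting chosen after seeing the data. The Dpf3 ratio turned positive with normexp (0.21), quantile (0.20) and median scaling (0.44), and ran from -1.73 to 0.68 when 1 line was left out; no other tested member probe turned in sign under the alternatives run. The cause was not tested. Leaving out 1 line in turn or requiring signal on all 4 arrays called 0 member probes and 0 of all probes. Leaving out a line from the comparison between lines leaves no residual degree of freedom and was not run. No paired analysis was possible because Mixture is a single array and the lines' numbers are only names. Signals near background limit Actl6b and 2 Smarca2 probes. Low signals that passed the background limit were those of Dpf3 in NSEB5-2C (11.5) and, in Mixture, of Dpf1 (29.3) and the dimmer Ss18l1 probe (22.0). With normexp the Dpf1 ratio fell from 2.72 to 1.67, and that of the dimmer Ss18l1 probe from 1.13 to 0.45.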
